A study of Mus musculus with 6 samples.

Results

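The expression of 10 genes used as markers of astrocytes was compared between CD11b-selected brain cells of MRL/lpr and MRL/mpj mice. The genes were Gfap, Aqp4, Aldh1l1, Slc1a2, Slc1a3, Gja1, S100b, Sox9, Glul and Clu, chosen by name and found by their Ensembl identifiers. All 10 were present among the 55401 genes counted and among the 19554 that passed the filter on low counts. The lpr mutation of Fas, the gene of a death receptor, is carried by MRL/lpr mice on the MRL/MpJ background, and these mice develop a lupus-like autoimmune disease. MRL/mpj mice are the control strain without that mutation. Mice of both strains were untreated and 6 weeks old, and the study describes its animals as female. After perfusion, the brains were digested, cells were separated on Percoll, and cells bearing CD11b, which microglia and other myeloid cells carry on their surface, were collected with magnetic beads. RNA of 3 preparations of each strain was sequenced. The study gives its n for this experiment as mice, but the sources do not say whether cells of several animals were pooled for a library, so the p-values below measure only the spread between these libraries.

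Astrocytes are the glial cells that take glutamate and potassium out of the space around synapses, return glutamine to neurons, and cover blood vessels with their endfeet. They are coupled to each other by gap junctions and raise intermediate filament genes when they become reactive. They do not carry CD11b, so the selection was not aimed at them. Several of the 10 genes are also used by other cells: Glul is made in many cell types, Clu is strongly expressed in choroid plexus and ependyma, and Slc1a3 marks Bergmann glia and neural progenitors. In bulk RNA, fewer cells of a type and less RNA per cell cannot be told apart.

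Total counts per library ran from 45481609 to 49846634. MRL/lpr replicate 3 stood apart, since the gene CT010467.1 took 6.38% of its counts, while the top gene of the other libraries took 1.09% to 1.95%. For pairs of MRL/lpr libraries that include it, the median squared difference was 20.1 to 20.2 times that of counting noise. For the other pairs within a strain it was 8.84 to 10.9 times. Some of the results that turn on it are given with and without it. The microglial marker Csf1r had an FPKM (fragments scaled by gene length and by depth) of 1409 to 1764 in the 6 libraries, and the summed CPM (counts scaled to a fixed library size) of 14 microglial markers was 26521 to 30021 in MRL/lpr and 30586 to 31579 in MRL/mpj, with 3 of the 14 lower by the test below, 6 without MRL/lpr replicate 3 and 5 with scaling by library size alone. The mitochondrial share of the counts was 3.06% to 3.49% in MRL/lpr and 5.84% to 6.38% in MRL/mpj. Xist, expressed from the inactive X chromosome of females, had 8886 to 11319 counts in MRL/lpr and 27 to 38 in MRL/mpj, whereas 4 genes of the Y chromosome together had 8408 to 15046 counts in every library. The Y chromosome counts in every library conflict with the study's description of its animals as female. Sex and strain cannot be told apart in these libraries. Fas had 461, 282 and 298 counts in MRL/lpr and 426, 432 and 362 in MRL/mpj. Counts per gene do not separate the mutant transcript, so Fas does not check the labels. The value of 4 was piled up, with 1138 to 1288 genes at 4 counts against 320 to 415 at 3, and low counts are therefore less precise than their size implies.

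The 10 genes differed widely in level, so the stretch of DNA in front of the start of transcription is shown for 4 of them: Slc1a3, the gene with the most negative fold change, S100b, the next gene by fold change with a RefSeq promoter, the most abundant gene Glul, and Gfap, the classical marker. RefSeq promoters on GRCm38.p6 were used for 7 of the 10 genes, and none was used for Sox9, Clu and Aqp4. Each sequence holds the 250 bases before the annotated start, 5' to 3' on the strand of the gene, and capitals mark matches to a motif.
Slc1a3 (chr15:8710808-8711057, minus strand): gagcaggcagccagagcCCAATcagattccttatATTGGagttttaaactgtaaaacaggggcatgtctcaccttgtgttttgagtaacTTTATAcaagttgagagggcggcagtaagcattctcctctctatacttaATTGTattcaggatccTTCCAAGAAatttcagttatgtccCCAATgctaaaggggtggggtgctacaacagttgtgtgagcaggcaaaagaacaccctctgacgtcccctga
S100b (chr10:76253586-76253835, plus strand): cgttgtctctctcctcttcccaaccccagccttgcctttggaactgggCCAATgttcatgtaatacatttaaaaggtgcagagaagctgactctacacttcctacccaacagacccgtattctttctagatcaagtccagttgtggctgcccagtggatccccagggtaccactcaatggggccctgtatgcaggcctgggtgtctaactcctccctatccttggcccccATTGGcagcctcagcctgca
Glul (chr1:153899679-153899928, plus strand): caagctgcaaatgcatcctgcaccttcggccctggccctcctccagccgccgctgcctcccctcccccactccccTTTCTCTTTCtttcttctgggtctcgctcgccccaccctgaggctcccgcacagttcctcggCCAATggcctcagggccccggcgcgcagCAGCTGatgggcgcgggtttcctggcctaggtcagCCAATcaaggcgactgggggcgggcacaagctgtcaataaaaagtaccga
Gfap (chr11:102897201-102897450, minus strand): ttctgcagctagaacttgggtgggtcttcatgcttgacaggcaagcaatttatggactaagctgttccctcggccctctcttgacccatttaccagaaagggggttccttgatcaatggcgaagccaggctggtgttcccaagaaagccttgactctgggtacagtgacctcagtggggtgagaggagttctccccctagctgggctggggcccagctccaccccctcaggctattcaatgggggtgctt
The motifs were searched on both strands over 32851 mouse promoters, and no matches overlapped in these windows. CCAAT, the CCAAT box, was found 3 times before Slc1a3 and 2 times each before S100b, Glul and Aldh1l1, and 33.8% of all promoters held it. Slc1a3 also held the letters of a TATA box (TATAAA, on the opposite strand, in 12.4% of promoters), of a GAS element (TTCNNNGAA, 7.02%) and of a SOX core (ACAAT, 27.7%). Glul held an ISRE core (in 2.98% of promoters) and a CAGCTG E-box (13.0%), and Gja1 held an AP-1 site (TGANTCA, 6.75%). The windows of Gfap and Slc1a2 held none of the motifs searched, which also included a full NFI site (in 0.0365% of promoters). A match says only that the letters are there.

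The strains were compared with edgeR's quasi-likelihood test across all 19554 genes with Benjamini-Hochberg adjustment, and values below are CPM scaled by TMM (a scaling between libraries) unless FPKM is named. Of the 10 astrocyte genes, 2 were downregulated in MRL/lpr, Slc1a3 and Clu, and 0 were upregulated. At an unadjusted p under 0.05 there were 4 lower and 1 higher, against 31.8% of all genes in either direction, and DESeq2 called 2 lower and 0 higher. Over all genes, 9.06% were downregulated and 11.1% upregulated, 20.2% in either direction. With an absolute log2 fold change of 1 or more as a further condition, 0 of the 10 passed, and 8.34% of all genes did, 4.67% higher and 3.66% lower. The median log2 fold change of the 10 genes was -0.16, and that of all genes was -0.01. The libraries of the strains did not overlap for 8 of the 10 genes, 5 lower and 3 higher in MRL/lpr, while this held for 39.0% of all genes, 19.4% lower and 19.6% higher.

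**Figure D1:**
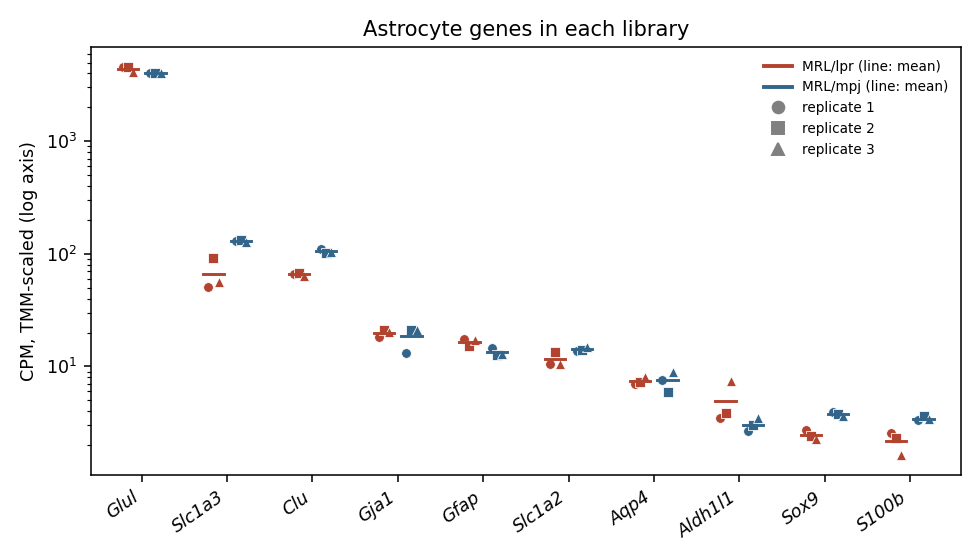
CPM of the 10 astrocyte genes in each library on a log axis, with 1 point per library, the replicate given by the marker and the mean of each strain by a line. Glul stands far above the other genes, Slc1a3 and Clu lie lower in all 3 MRL/lpr libraries, and MRL/lpr replicate 2 is the highest of its strain for Slc1a3.

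**Figure D2:**
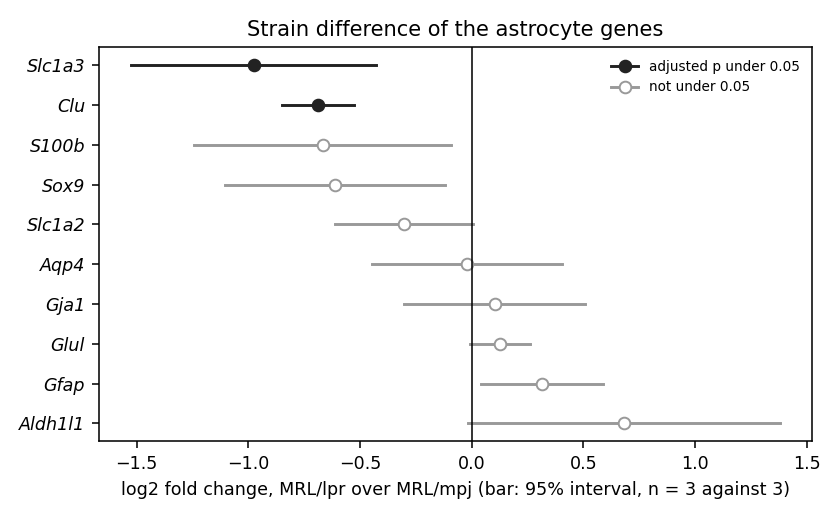
Log2 fold change of each astrocyte gene, MRL/lpr over MRL/mpj, with its 95% interval from edgeR (3 libraries per strain), filled where the adjusted p was under 0.05. Slc1a3 (-0.98) and Clu (-0.69) are filled, and the other 8 genes are open on both sides of 0.

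Slc1a3 (ENSMUSG00000005360, chr15:8634124-8710764, minus strand) encodes GLAST, a glutamate transporter of the astrocyte membrane. It had 50.3, 92.3 and 55.7 CPM in MRL/lpr and 131, 132 and 127 CPM in MRL/mpj. Every MRL/lpr library was below every MRL/mpj library, and MRL/lpr replicate 2 lay well above the other 2 of its strain. The means were 66.1 ± 22.8 CPM and 130 ± 3.05 CPM (SD, n = 3 each), 49.2% lower in MRL/lpr by the fitted fold change. The log2 fold change was -0.98 (SE 0.23, 95% interval -1.52 to -0.43, adjusted p = 0.0271 by edgeR's quasi-likelihood test). The call depended on single libraries. Without MRL/lpr replicate 2, whose counts were 4343 against 2367 and 2327, the log2 fold change was -1.30 with an adjusted p of 5.72e-05, and without MRL/lpr replicate 1 it was -0.81 with 0.0425. Without MRL/lpr replicate 3 it was -0.86 with an adjusted p of 0.146, and without MRL/mpj replicate 1, 2 or 3 the adjusted p was 0.0696, 0.0736 or 0.0689.

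Slc1a2 (ENSMUSG00000005089, chr2:102658659-102790784, plus strand) encodes GLT-1, the main glutamate transporter of the forebrain. Its CPM was 10.6, 13.4 and 10.6 in MRL/lpr and 13.8, 14.0 and 14.9 in MRL/mpj. The strains did not overlap, but MRL/lpr replicate 2 came close to the MRL/mpj libraries. It was the highest of its strain, as it was for Slc1a3. The log2 fold change was -0.30 (SE 0.14, interval -0.61 to 0.00) and did not pass the test (adjusted p = 0.164). Counts of Slc1a3 per count of Slc1a2 in the same library were 4.75, 6.89 and 5.25 in MRL/lpr and 9.48, 9.49 and 8.51 in MRL/mpj.

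Glul (ENSMUSG00000026473, chr1:153899944-153909723, plus strand) encodes glutamine synthetase, which turns glutamate into glutamine. It had 4549, 4581 and 4115 CPM in MRL/lpr and 4071, 4031 and 4023 CPM in MRL/mpj. The means were 4415 ± 260 and 4042 ± 25.8 CPM (SD, n = 3 each), and all MRL/lpr libraries were above those of MRL/mpj. The log2 fold change was 0.13 (SE 0.06, interval -0.01 to 0.26, adjusted p = 0.181). Without MRL/lpr replicate 3 it was 0.18 and passed the test (adjusted p = 0.000844), and with scaling by library size alone it was 0.01. In FPKM, Glul was 33.4 to 62.7 times as high as Clu, the next of the 10 genes, in the same library. It made up 93.1% to 96.2% of the counts of the 10 genes and 0.378% to 0.447% of all counts. A sum over the 10 genes is therefore almost only Glul. The 9 other genes summed to 179 to 225 CPM in MRL/lpr and 299 to 301 CPM in MRL/mpj, and without Slc1a3 and Clu, a choice made after seeing their values, the other 7 summed to 62.3 to 67.1 and 58.8 to 68.4 CPM. An opposite-strand gene, Teddm2, and the microRNA gene Mir8114 on the same strand share exonic bases with Glul, and the strand setting of the counting is not given in the sources used here.

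Clu (ENSMUSG00000022037, chr14:65968483-65981547, plus strand) encodes clusterin, a secreted chaperone also known as apolipoprotein J. Its CPM was 66.0, 67.4 and 63.6 in MRL/lpr and 111, 102 and 104 in MRL/mpj. Libraries of each strain lay close together and far from those of the other strain, at 65.7 ± 1.92 and 106 ± 4.53 CPM (SD, n = 3 each). Clu was 37.9% lower in MRL/lpr, with a log2 fold change of -0.69 (SE 0.07, interval -0.85 to -0.53, adjusted p = 0.000149 by edgeR). It passed the test in all 15 settings tried, those without 1 library included.

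S100b (ENSMUSG00000033208, chr10:76253853-76261159, plus strand), a calcium-binding protein of astrocytes, had 121, 108 and 68 counts in MRL/lpr and 171, 181 and 176 in MRL/mpj. In CPM these were 2.57, 2.29 and 1.63 against 3.33, 3.62 and 3.38, without overlap. The log2 fold change was -0.67 (SE 0.26, interval -1.24 to -0.09), with an adjusted p of 0.103. Sox9 (ENSMUSG00000000567, chr11:112782224-112787760, plus strand), a transcription factor of the astrocyte lineage, had 129, 114 and 94 counts in MRL/lpr and 201, 190 and 189 in MRL/mpj. Its CPM of 2.74, 2.42 and 2.25 was below 3.91, 3.80 and 3.63 in MRL/mpj, again without overlap, and the log2 fold change was -0.61 (SE 0.22, interval -1.10 to -0.12, adjusted p = 0.0824). With scaling by library size alone, Sox9 passed the test (-0.73, adjusted p = 0.0433 by edgeR). That scaling moved the median of all genes to -0.13.

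Gfap (ENSMUSG00000020932, chr11:102887336-102900912, minus strand) encodes the intermediate filament protein that rises in reactive astrocytes. It had 17.7, 15.04 and 17.2 CPM in MRL/lpr and 14.5, 12.6 and 13.0 CPM in MRL/mpj. The strains did not overlap, and the gap between the lowest MRL/lpr and the highest MRL/mpj library was small. The log2 fold change of 0.32 (SE 0.12, interval 0.04 to 0.59) had an unadjusted p of 0.0285 and an adjusted p of 0.106 by edgeR. Aldh1l1 (ENSMUSG00000030088, chr6:90486427-90600203, plus strand), a folate enzyme used as a broad astrocyte marker, had 3.47, 3.85 and 7.39 CPM in MRL/lpr and 2.67, 3.02 and 3.46 CPM in MRL/mpj. MRL/lpr replicate 3 stood apart, and the other 2 MRL/lpr libraries were at the upper edge of MRL/mpj. The log2 fold change was 0.68 (SE 0.31, interval -0.01 to 1.38, adjusted p = 0.166), and 0.27 without MRL/lpr replicate 3 (adjusted p = 0.521).

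Aqp4 (ENSMUSG00000024411, chr18:15389496-15410982, minus strand), the water channel of the endfeet, and Gja1 (ENSMUSG00000050953, chr10:56377330-56402513, plus strand), the gap junction protein connexin 43, overlapped between the strains. Aqp4 had 6.96, 7.20 and 8.04 CPM in MRL/lpr and 7.59, 5.92 and 8.995 in MRL/mpj, with a log2 fold change of -0.02 (SE 0.19, interval -0.45 to 0.40, adjusted p = 0.962). Gja1 had 18.3, 21.1 and 20.03 CPM in MRL/lpr and 13.0, 21.2 and 21.1 in MRL/mpj, with a log2 fold change of 0.10 (SE 0.18, interval -0.30 to 0.51, adjusted p = 0.761). For Gja1, MRL/mpj replicate 1 was low and the other 5 libraries lay close together. With scaling by library size alone its log2 fold change was -0.022.

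Per length of gene, the order of the levels was led by Glul, Clu, Slc1a3 and Gfap in both strains. Mean FPKM in MRL/mpj was 994 for Glul, 28.6 for Clu, 14.2 for Slc1a3, 2.94 for Gfap, 2.15 for S100b, 1.67 for Gja1, 1.12 for Aqp4, 1.01 for Slc1a2, 0.85 for Sox9 and 0.623 for Aldh1l1. In that order Aqp4 overlapped Gja1, and Slc1a2 overlapped Aqp4, in single libraries. Mean FPKM in MRL/lpr was 1000 for Glul, 16.3 for Clu, 6.64 for Slc1a3, 3.37 for Gfap, 1.65 for Gja1, 1.25 for S100b, 1.01 for Aqp4, 0.913 for Aldh1l1, 0.75 for Slc1a2 and 0.513 for Sox9. There Aqp4, Aldh1l1 and Slc1a2 each overlapped the gene before. Aldh1l1 stood last in MRL/mpj but above Slc1a2 and Sox9 by its mean in MRL/lpr. Its place above Slc1a2 came from MRL/lpr replicate 3 alone. Aldh1l1 had 0.66, 0.74 and 1.34 FPKM in MRL/lpr, and Slc1a2 had 0.70, 0.89 and 0.66.

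Because the fold changes had both signs, each gene was also set against Gfap in the same library, a ratio that does not depend on scaling and that was added after the data were seen. Slc1a3 had 2.85, 6.13 and 3.25 counts per Gfap count in MRL/lpr and 9.06, 10.5 and 9.76 in MRL/mpj. Clu had 3.73, 4.48 and 3.71 against 7.66, 8.11 and 8.01. For Sox9 the ratios were 0.155, 0.161 and 0.131 against 0.270, 0.301 and 0.280. These 3 genes and S100b and Slc1a2 had lower ratios in every MRL/lpr library than in any MRL/mpj library, each with an exact two-sided permutation p of 0.1, the smallest that 3 libraries against 3 can give. The ratios of Aqp4, Gja1, Aldh1l1 and Glul overlapped between the strains. A ratio shows unequal change of the pair of genes and not which of them changed.

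**Figure D3:**
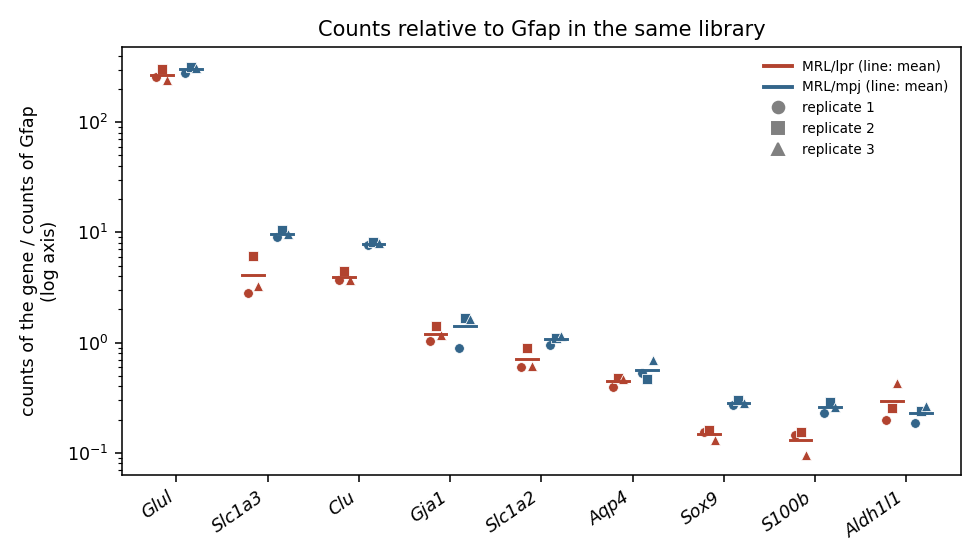
Counts of each astrocyte gene divided by the counts of Gfap in the same library, on a log axis, with 1 point per library and a line for the mean of each strain. Slc1a3, Clu, Slc1a2, S100b and Sox9 are lower in all 3 MRL/lpr libraries, and the 4 other genes overlap.

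A further 30 genes enriched in astrocytes were read from the same test. Of these, 7 were downregulated, 1 was upregulated and 22 did not pass, and their median log2 fold change was -0.34. That median depended on the setting. It was -0.17 without MRL/lpr replicate 3, -0.22 without MRL/mpj replicate 3 and -0.14 with counts divided by 4. With scaling by library size alone it was -0.45. The summed CPM of the list was 578 to 648 in MRL/lpr and 862 to 870 in MRL/mpj. Atp1b2, a subunit of the sodium pump, had 15.9 ± 2.26 CPM in MRL/lpr against 28.6 ± 1.12 CPM in MRL/mpj (SD, n = 3 each) and a log2 fold change of -0.85 (SE 0.12, adjusted p = 0.000973 by edgeR). The potassium channel Kcnj10 was at 12.5 ± 1.31 against 20.1 ± 1.09 CPM, with a log2 fold change of -0.69 (SE 0.12, adjusted p = 0.0031). Ndrg2, Htra1, Sparcl1 and Slc39a12 were also lower. Sparcl1 did not pass the test without MRL/mpj replicate 2 (-0.37, adjusted p = 0.0537), and Slc39a12 passed with all libraries (-0.41, adjusted p = 0.0494) and without MRL/lpr replicate 3, but not without any other library (adjusted p 0.0744 to 0.148). F3, tissue factor, was the upregulated gene, with a mean of 14.6 ± 1.47 CPM against 5.39 ± 1.48 CPM and a log2 fold change of 1.43 (SE 0.20).

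The genes of water and potassium handling and of the endfoot included 5 downregulated and 0 upregulated of 13, with a median of -0.45. DESeq2 called the same numbers, and 1 was higher at an unadjusted p under 0.05. Without MRL/lpr replicate 3, and also with scaling by library size alone, 7 were downregulated. Kcnj10, Kcnj16, Trpv4 and Dag1 were among the 5 downregulated with all libraries. Kcnj16, a potassium channel subunit that pairs with Kcnj10, had a log2 fold change of -2.27 (SE 0.31) at low levels of 1.51 ± 0.527 and 7.34 ± 1.68 CPM. Trpv4, a cation channel that responds to osmotic swelling, fell by 0.70 on the log2 scale, and Dag1, which gives the dystroglycan that ties endfeet to the vessel wall, fell by 0.40. Aqp4, the water channel of the same structure, was at -0.02.

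Among 8 tested connexins and pannexins besides Gja1, 2 were downregulated and 0 upregulated by edgeR; 1 was higher at an unadjusted p under 0.05, DESeq2 called 1 higher, and so did edgeR without MRL/lpr replicate 2. Gja4, connexin 37 of vessels, had a log2 fold change of -1.19 (SE 0.18), and Gjc3, a connexin of oligodendrocytes, had 4, 8 and 4 counts in MRL/lpr and 44, 48 and 55 in MRL/mpj. Of 10 tested relatives of S100b outside the lists, 1 was downregulated and 2 were upregulated. S100a5 was near absent from MRL/lpr, with 3, 0 and 0 counts against 44, 40 and 34 in MRL/mpj (adjusted p = 0.0101, and 0.0514 without MRL/mpj replicate 1). S100a11 was higher by 0.56 on the log2 scale (adjusted p = 0.0155), a call lost without MRL/lpr replicate 1 or MRL/mpj replicate 1 or 3 (adjusted p 0.0606 to 0.0653). S100a8, a subunit of the myeloid protein calprotectin, was higher by 0.36 (adjusted p = 0.0328), a call lost without MRL/lpr replicate 1 or MRL/mpj replicate 2 or 3 (adjusted p 0.0571 to 0.136). Des, a relative of Gfap in muscle-type cells and pericytes, fell by 1.17 on the log2 scale (SE 0.15), and Aldh1l2, the mitochondrial relative of Aldh1l1, was at -0.22 (adjusted p = 0.537).

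In the list of glutamate and glutamine genes, 2 were upregulated and 2 downregulated of 13 tested, with a median of 0.25. DESeq2 called 3 higher and 2 lower, and at an unadjusted p under 0.05 there were 5 and 2. With scaling by library size alone, or without MRL/mpj replicate 1, 0 were upregulated. With a replicate block, 1 was upregulated and 0 were downregulated. Among the genes called with all libraries were the neutral amino acid transporters Slc38a2 (0.40), Slc38a5 (-0.35) and Slc38a1 (-0.26). All 3 transporters passed with all libraries and without MRL/lpr replicate 3, and not without any other single library (adjusted p 0.0508 to 0.106). Of 15 tested glial transcription factors, 0 were upregulated and 1 was downregulated by edgeR and by DESeq2, and at an unadjusted p under 0.05 there were 0 and 4. Without MRL/mpj replicate 1, 1 was upregulated. The downregulated gene, Nfib, fell by 0.35 on the log2 scale (adjusted p = 0.0418) and did not pass when any 1 library was left out (adjusted p 0.0693 to 0.117).

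Genes described in reactive astrocytes gave both directions. In the general reactive list, 3 of 13 were upregulated and 2 downregulated, with a median of 0.05. Serpina3n, a protease inhibitor, was higher by 1.31 (SE 0.20), Cp, ceruloplasmin, by 1.05 (SE 0.07) and Cd44, a hyaluronan receptor, by 0.74 (SE 0.12) on the log2 scale. Nes, the intermediate filament nestin, fell by 0.77 on the log2 scale (SE 0.08). Vim, the filament gene vimentin, was at 0.04 (adjusted p = 0.845) and Lcn2, lipocalin 2, at 0.00 (adjusted p = 0.98). The A1 list, named after astrocytes exposed to inflammation, had 6 of 11 upregulated and 4 downregulated, with a median of 0.57. Its upregulated members with the highest fold changes were H2-T23 (1.73), Iigp1 (1.69), Gbp2 (1.33) and Srgn (1.20). The first 3 are interferon-responsive genes that myeloid cells express too. All the reactive lists were read in cells selected for CD11b, and which cell type gave their changes was not tested. H2-D1, a classical major histocompatibility gene, fell by 1.04 on the log2 scale. In the A2 list, named after astrocytes in ischaemia, 4 of 11 were upregulated and 1 downregulated, with Ptgs2 (1.37), the prostaglandin synthase, and S100a10 (1.14) among them.

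**Figure D4:**
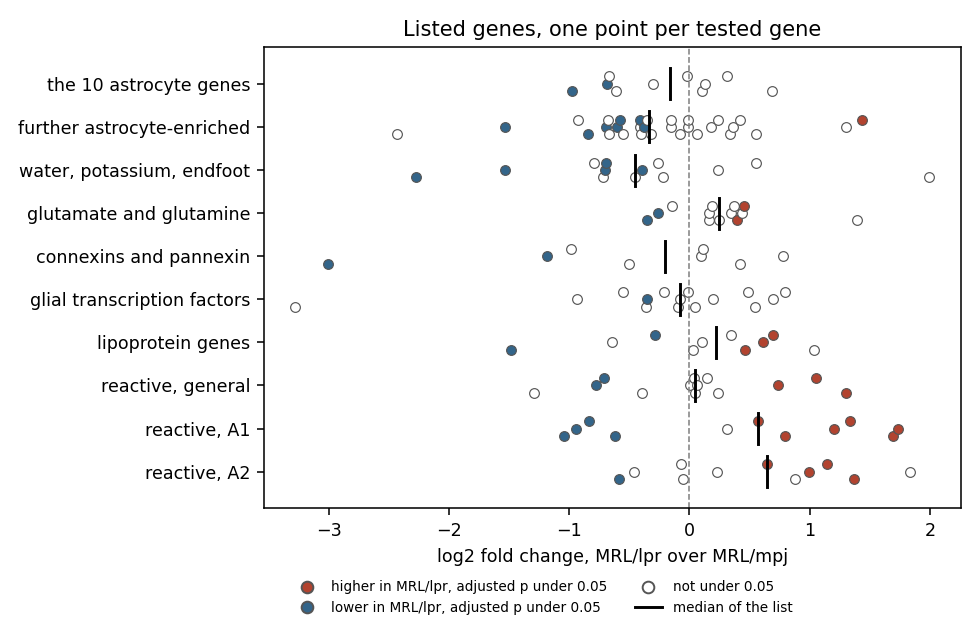
Log2 fold change, MRL/lpr over MRL/mpj, of each tested gene of the 10 astrocyte genes and the 9 further lists, filled where the adjusted p was under 0.05, with a bar at the median of the list. Filled points of the further astrocyte-enriched and endfoot lists lie mostly below 0, and those of the A1 and A2 reactive lists mostly above it.

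Clu also belongs with the genes of lipoprotein particles. Of 10 further genes of that kind, 3 were upregulated and 2 downregulated, with a median of 0.22. Without MRL/mpj replicate 1 there was 1 upregulated, and without MRL/lpr replicate 2 or MRL/mpj replicate 3 there was 1 downregulated. Apoe, the apolipoprotein made by astrocytes and by activated microglia, was at 498 ± 90.1 CPM in MRL/lpr and 1390 ± 208 CPM in MRL/mpj, a log2 fold change of -1.48 (SE 0.16, adjusted p = 0.000783). Abca7, a lipid transporter of phagocytes, was higher by 0.61 (SE 0.07). Over the 9 further lists, with shared genes counted once, 19 of 118 tested genes were upregulated and 24 downregulated, and their median was -0.00.

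Most marker lists of other brain cells had a lower summed CPM in MRL/lpr. Of 10 choroid plexus markers, 9 were downregulated, and their summed CPM was 367 to 380 in MRL/lpr and 1099 to 1185 in MRL/mpj. Fabp7, a fatty acid binding protein of progenitors and Bergmann glia, fell by 2.11 on the log2 scale, and the 6 markers of that list summed to 55.0 to 61.8 against 94.3 to 108 CPM, with 2 of 5 tested downregulated. Neuronal markers summed to 38.7 to 45.01 against 64.1 to 70.5 CPM, oligodendrocyte markers to 131 to 153 against 168 to 200 CPM, and markers of oligodendrocyte precursors to 14.3 to 19.9 against 28.3 to 30.2 CPM. Among them, 2 of 12, 2 of 10 and 3 of 6 were downregulated, and 1 precursor marker, Vcan, was higher by 0.96 on the log2 scale, a call lost without MRL/lpr replicate 2 or 3 or MRL/mpj replicate 2 or 3 (0.84 to 0.95, adjusted p 0.0523 to 0.0694 by edgeR). Ependymal markers summed to 29.6 to 32.8 against 36.2 to 37.9 CPM; 0 of 7 passed edgeR's test or DESeq2 in either direction, and 3 were lower at an unadjusted p under 0.05. Meningeal fibroblast markers summed to 13.3 to 19.1 against 33.5 to 39.1 CPM, with 3 of 5 downregulated. The sum of endothelial and pericyte markers did not share this direction, at 2084 to 2306 against 1998 to 2055 CPM. Of these 12 markers, 2 were upregulated and 3 downregulated (5 without MRL/lpr replicate 3). The pericyte markers Abcc9 (log2 fold change -1.60 to -1.35 over the 15 settings) and Pdgfrb (-0.69 to -0.48) were lower in every setting. So was the endothelial marker Tek (-0.57 to -0.42), while the endothelial marker Flt1 (0.23 to 0.39) was higher. No defining marker of these lists was at 0 in all libraries of a strain. The part of these cells in the lower levels of Slc1a3 and Clu was not tested.

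**Figure D5:**
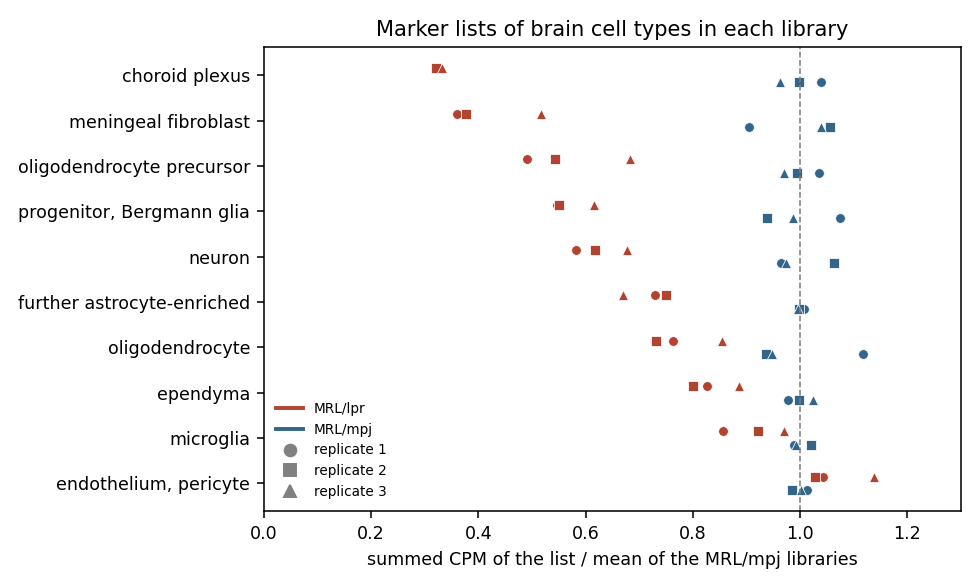
Summed CPM of each marker list in each library divided by the mean of the 3 MRL/mpj libraries, with 1 point per library, so that 1 is the MRL/mpj mean. Choroid plexus markers lie lowest in MRL/lpr, the further astrocyte-enriched genes lie among the other non-microglial lists, and the endothelial and pericyte list lies above 1 in all 3 MRL/lpr libraries.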

How the data were processed

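Microglia selected for CD11b were sequenced from 3 MRL/lpr and 3 MRL/mpj preparations as paired reads of 150 bp. The authors trimmed and aligned the reads, and the submitters' processing notes name cutadapt 1.9.3, HISAT2 2.0.4, Cufflinks, Cuffdiff 2.2.1 and GRCm38. The labels describe removal of ribosomal RNA and the study's methods purification of mRNA. Raw whole-number counts were deposited by the authors, and the deposited FPKM values, scaled by gene length and depth, were used only for levels between genes.

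Symbols and coordinates were read from GENCODE M21 (GRCm38), where 55141 of 55401 identifiers were found; the 260 others held 8124 to 16804 counts per library. Promoters came from RefSeq. Counts were filtered with filterByExpr (minimum count 10, minimum total 15), scaled by TMM and tested with edgeR 4.0.16 in R 4.3.3 (robust glmQLFit and glmQLFTest, no covariates, Benjamini-Hochberg adjustment over 19554 genes, called at an adjusted p under 0.05). SEs and 95% intervals come from the same fit. DESeq2 1.42.0, other scalings and filters, non-robust dispersions, counts divided by 4, a replicate block and each library left out in turn were the alternatives, 15 settings in all. Named were all 10 members, up to 4 called genes of each list with the largest fold changes and no overlap, relatives in a member's family, and genes that a small count refers to. Genes named beyond this were chosen after their values were seen. Some genes that the rule covers are not reported here. The members and lists were chosen with earlier results of these data known. The steps were tested on simulated data.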

Additional observations from a re-analysis of the deposited data

How the results depend on the processing

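Of the 10 genes, 2 were downregulated under the main settings. Without a count filter 1 was (Clu), with a fold-change minimum of 1 on the log2 scale there were 0, and leaving out 1 library gave 1 to 2; upregulated were 0 to 1 (Glul, without MRL/lpr replicate 3). Over all genes, scaling by library size alone gave 1634 higher and 2790 lower against 2178 and 1772, moving their median log2 fold change from -0.01 to -0.13, and leaving out 1 library gave 1626 to 2363 higher and 1177 to 1971 lower. The direction turned for Aqp4 without MRL/lpr replicate 1 (0.02) and MRL/mpj replicate 3 (0.13), over a range of -0.17 to 0.13 with each library left out, and for Gja1 with scaling by library size alone (-0.022) and over a range of -0.10 to 0.21 with each library left out. The cause was not tested. Same-numbered libraries did not deviate together (correlations -0.04 to -0.02). With a replicate block, 0 of the 10 genes were upregulated and 2 downregulated, Slc1a3 at -1.03 (adjusted p = 0.0097), and over all genes 1754 were higher and 1309 lower. For S100b and Sox9, with counts of 68 to 201, a miss of the threshold does not show equal levels.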
